A study of Mus musculus with 2 samples.

Results

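Mycn and Myc encode N-MYC and c-MYC, related transcription factors that pair with MAX and bind E-box sequences in DNA. They drive genes of growth, ribosome production and the cell cycle, and in mouse embryonic stem cells both contribute to proliferation and self-renewal. BRD2 belongs to the BET proteins, whose bromodomains recognise acetylated histone tails on transcribed chromatin. BET proteins are known regulators of MYC genes in cancer cells.

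Chromatin contacts at these loci were read from a list of BRD2 loops measured by ChIA-PET in the V6.5 line of mouse embryonic stem cells. ChIA-PET precipitates chromatin with an antibody, here against BRD2, ligates DNA ends that lie near each other and sequences the joined pairs. The study has 2 samples, replicates 1 and 2 of wild-type, untreated V6.5 cells, grown with serum and LIF on irradiated mouse fibroblasts. The list holds no expression values, so the cell type was not checked against marker genes, and the share of fibroblast chromatin was not tested. The samples form 1 group and entered 1 merged list, so no condition can be compared, no value below has a replicate error, and the sequencing depth behind a loop is unknown.

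The loops were chosen by position: a loop belongs to a locus if either of its outer edges lies in a window on the mm9 genome build, 12750000 to 13100000 of chromosome 12 for Mycn or 61700000 to 61950000 of chromosome 15 for Myc. This gave 21 loops of the 7732 in the list, 20 in the Mycn window and 1 in the Myc window. The windows were drawn with the list known, so the number of loops and their partners describe how they were chosen and were not tested. The edge of neither window divided a cluster. The nearest loop outside the Mycn window ran from 12715703 to 12722723 with a score of 6000, and no loop edge was listed within 2.72 Mb of the Myc loop. No member loop was longer than 5 Mb. Each loop has a single score, the authors' own value, which comes in steps of 1000 from a lowest value of 2000. No header states its unit.

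The genes themselves could not be placed on the anchors, since the gene table is on GRCm38.p6 and the loops are on mm9. In the order of that table, the 5 nearest annotated genes on either side of Mycn are 8 long non-coding RNAs and 2 pseudogenes, with Rpl36-ps3 and Gm48201 next to it. The nearest protein-coding genes are Cyria, which encodes a regulator of actin dynamics, and Ddx1, an RNA helicase gene that is often amplified together with MYCN in human neuroblastoma. Myc is followed directly by Pvt1, a long non-coding RNA gene that neighbours MYC in human as well, and its nearest protein-coding genes are A1bg and Gsdmc. The coding neighbours were added to the list of names after the table had been read.

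The promoter sequence of Mycn is shown because it is the start of the gene for which the denser of both windows is named. The 250 bases before its transcription start, from RefSeq on GRCm38.p6 at chr12:12941837-12942086 on the minus strand, read 5′ to 3′ as follows, with matches to the motifs searched in capitals.
Mycn promoter: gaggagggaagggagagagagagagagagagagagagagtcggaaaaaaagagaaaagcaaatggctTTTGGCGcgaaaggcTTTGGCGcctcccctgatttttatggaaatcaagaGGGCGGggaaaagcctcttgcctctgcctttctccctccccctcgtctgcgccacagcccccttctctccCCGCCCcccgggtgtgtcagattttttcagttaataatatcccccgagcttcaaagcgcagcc

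These bases hold 2 matches to TTTGGCG, the core of sites bound by E2F factors, which control genes of the cell cycle. The matches begin 183 and 168 bases upstream of the start. They also hold 2 matches to the GC box GGGCGG, a site of SP1-type factors, beginning 133 and 63 bases upstream, the second of them on the opposite strand. No letters matched the E-box CACGTG, the CCAAT box CCAAT or the TATA box TATAA. Both strands were searched and no matches overlapped. Among 32841 promoter windows of the same length in the RefSeq table, TTTGGCG was found in 1.26%, GGGCGG in 32.7%, CACGTG in 6.02%, CCAAT in 33.9% and TATAA in 22.8%. The Mycn window had 54.8% G and C and 11 CpG dinucleotides, against medians of 52.4% and 6 over all windows. At least as high a share of G and C was found in 42.2% of the windows, and at least as many CpG dinucleotides in 35.6%. Motifs were chosen with the sequence in view, a match is only a match of letters, and whether an anchor lies on this promoter was not analysed here.

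The Mycn window held a compact network of BRD2 contacts. Its 20 loops joined 9 anchors, numbered 1 to 9 from left to right, into 1 connected group that reached from 12795225 to 12946153, an extent of 151 kb. An anchor is a place where loops end. Its left edge is listed where it begins a loop and its right edge where it ends one. The summed score was 75000, and the highest score, 15000, was the only one of that size among the 250 loops of chromosome 12, where the next was 12000. These 20 loops made up 8.0% of the loops of chromosome 12 and 9.97% of their summed score.

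**Figure D1:**
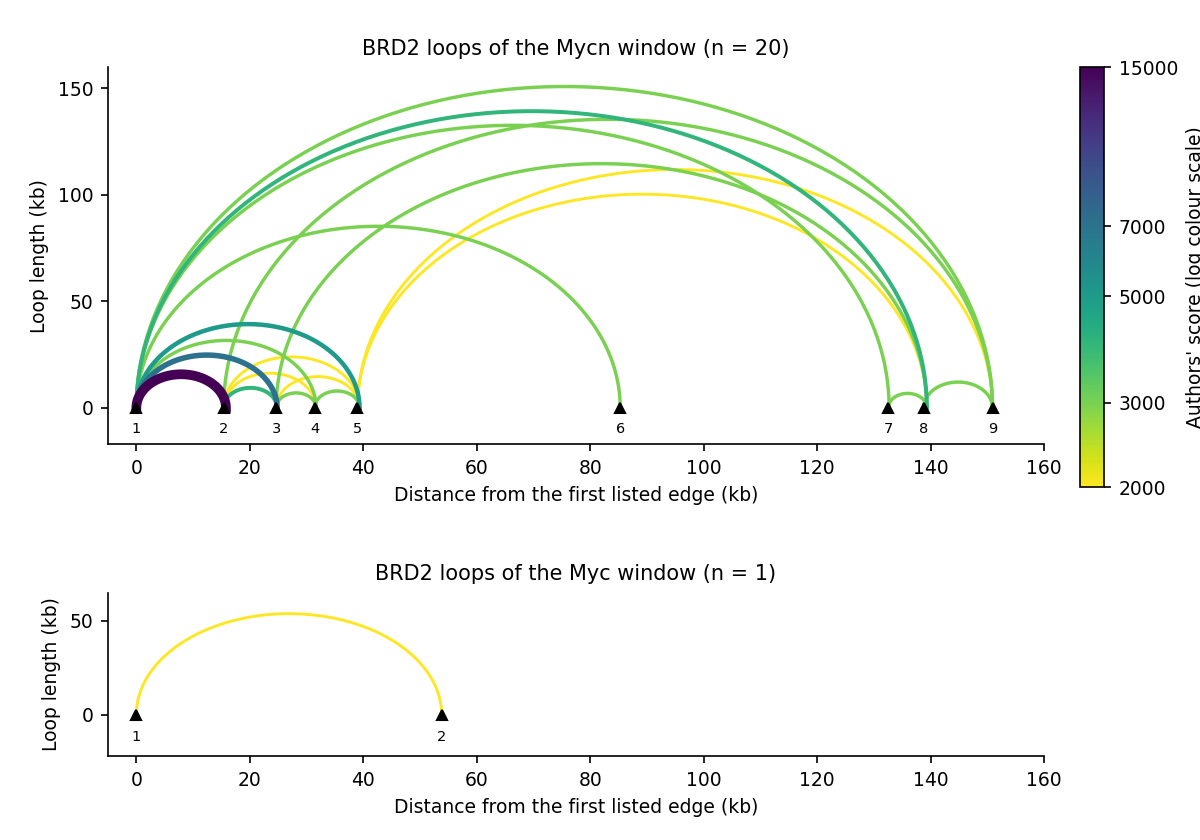
BRD2 loops of the Mycn window (top) and the Myc window (bottom), drawn as arcs over the distance in kb from the first listed edge of each window. Arc height is loop length in kb, colour and width show the authors' score, and triangles mark numbered anchors; anchor 1 of the Mycn window joins 8 others, and the Myc window holds 1 loop of 53.8 kb.

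Anchor 1, which starts at 12795225, joined each of the other 8 anchors, all of them downstream. For anchors and loops, upstream and downstream mean toward lower and higher coordinates, not along a gene. Mycn is on the minus strand, so its own upstream side is toward higher coordinates. The right edge of anchor 1 is not listed because no loop ends there. From the nearest partner to the farthest, its loop to anchor 2 had a score of 15000 at 15.8 kb, its loop to anchor 3 one of 7000 at 24.8 kb, its loop to anchor 4 one of 3000 at 31.7 kb and its loop to anchor 5 one of 5000 at 39.3 kb. The score was thus highest for the nearest partner, with anchor 4 below both of its neighbours. The loop to anchor 6 had a score of 3000 at 85.3 kb. The loops to anchors 7, 8 and 9 had scores of 3000, 4000 and 3000 at 133, 139 and 151 kb. Beyond anchor 5 the score stayed at 3000 or 4000 whatever the distance. Over these 8 loops, which share an anchor, score and length had a Spearman's rho of -0.66, given as a description.

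The loop from 12795225 to 12811012, between anchors 1 and 2, was among the strong ones of the list. Its score of 15000 was reached by 50 of the 7732 loops, or 0.647%, and by 21 of the 1697 loops of 10 to 20 kb. The loop from 12795225 to 12820035, between anchors 1 and 3, had a score that 4.85% of the 1998 loops of 20 to 50 kb reached. The loop from 12795225 to 12934575, between anchors 1 and 8, had a score of 4000, which 118 of the 1199 loops of 100 to 500 kb, or 9.84%, reached.

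Anchor 1 carried a summed score of 43000, or 57.3% of the window's total. Anchor 1 had 8 partners, a number that 20 of the 9269 anchors of loops up to 5 Mb reached (0.216%), and its summed score was reached by 21 of them. It was the only anchor in the list with 8 or more partners on the downstream side, and 1 other anchor had as many on the upstream side. The anchor was picked for its one-sided partners. Its one-sidedness, its number of partners and its rank by summed score therefore follow from the choice and are not results. Outside the group, no anchor of chromosome 12 had more than 7 partners.

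Without anchor 1, the other loops still held together. They were 12 loops with a summed score of 32000 and a highest score of 4000. They joined 7 anchors in 1 group, and only anchor 6 lost its single contact. Of the 19 triangles, sets of 3 anchors joined pairwise, 12 included anchor 1 and 7 did not. Since anchor 1 joined every other anchor, each of the 12 other loops closes 1 triangle with it. That count of 12 is therefore no separate result.

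Anchors 1 to 5 were joined without a gap. The 5 anchors lie within 39.3 kb, from 12795225 to 12834573, and all 10 of their pairs were listed, with a summed score of 46000, or 61.3% of the window. Beside the loops of anchor 1, anchors 2 and 3 were joined with a score of 4000, anchors 3 and 4 with one of 3000 and anchors 4 and 5 with one of 3000. The 3 pairs that pass over an anchor in this set without using anchor 1 (2 with 4, 2 with 5, and 3 with 5) each had the lowest score, 2000. Neighbours in this cluster thus scored above the pairs that skip an anchor, apart from the loops of anchor 1.

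**Figure D2:**
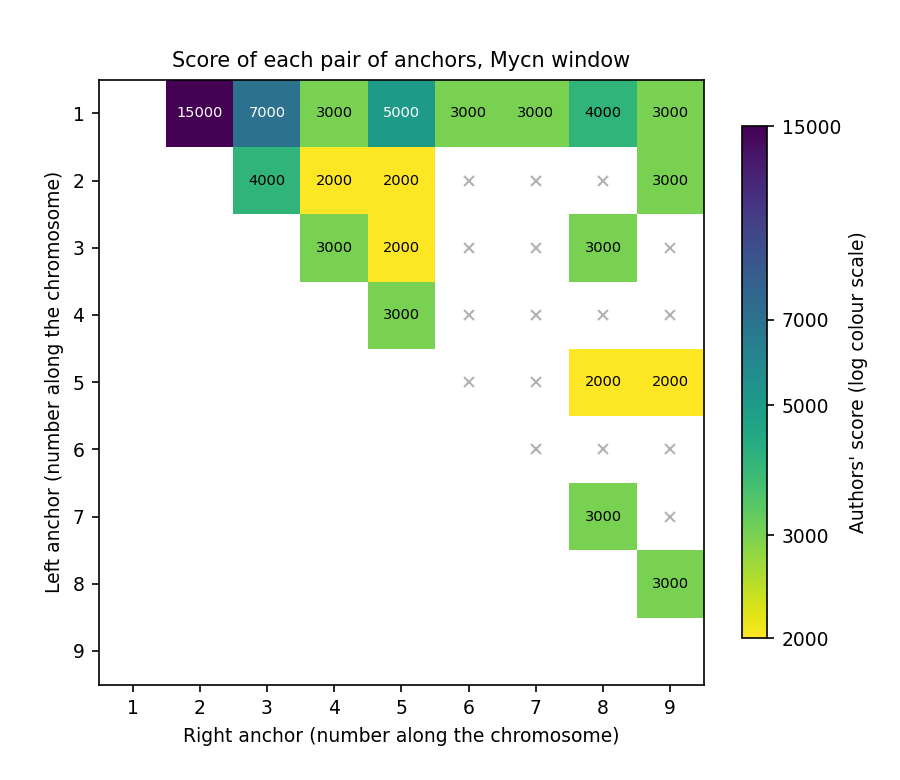
Score of each of the 36 pairs of the 9 anchors of the Mycn window, with the left anchor down the page and the right anchor across. Filled cells carry the authors' score, and crosses mark the 16 pairs that are not listed; the cells of anchors 1 to 5 are all filled, and the row of anchor 1 is complete.

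Both edges of anchors 2 to 5 were listed. Anchor 2 spanned 12810613 to 12811012 (399 bp), anchor 3 spanned 12819871 to 12820035 (164 bp), anchor 4 spanned 12826644 to 12826907 (263 bp) and anchor 5 spanned 12834204 to 12834573 (369 bp). Their numbers of partners were 5, 5, 4 and 6, and their summed scores 26000, 19000, 11000 and 16000. Anchor 5 had the most partners after anchor 1, but anchor 2, through its loop to anchor 1, had the larger summed score.

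Anchors 7 to 9 formed a second cluster to the right, from 12927770 to 12946153, over 18.4 kb. Anchor 7 (12927770 to 12927926, 156 bp) had 2 partners. Anchor 8 (12934022 to 12934575, 553 bp, the widest of the group with both edges listed) had 5, and anchor 9, which ends at 12946153, had 4. Anchors 7 and 8 were joined with a score of 3000 at 6.81 kb, and anchors 8 and 9 with a score of 3000 at 12.1 kb. The pair of anchors 7 and 9, 18.4 kb apart, was not listed. Anchor 9 had no listed partner downstream.

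The left and right clusters were joined across the stretch between them by 7 of their 15 possible pairs, with a summed score of 20000, or 26.7% of the window. Anchor 8 took part in 3 of these, with anchor 1 (score 4000), anchor 3 (3000) and anchor 5 (2000). Anchor 9 also took part in 3, with anchor 1 (3000), anchor 2 (3000) and anchor 5 (2000). Anchor 7 was reached from the left by anchor 1 alone, with a score of 3000. Anchor 4 had no listed contact with the right cluster, although it had 4 partners within its own. These 7 loops were 100 to 151 kb long, and 5 of the 7 had a score of 3000 or more, where 27.4% of all listed loops of 100 to 500 kb reached that score. All loops here of anchor 1, which the window was drawn around, were among the 5. Of the loops without anchor 1, those of anchors 2 with 9 and 3 with 8 reached 3000, and those of anchor 5 did not. The comparison thus follows in part from the choice, the loops share anchors, and no test was made.

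Anchor 6, which ends at 12880522, lies between the clusters, 45.9 kb from anchor 5 and 47.2 kb from anchor 7. It was the least connected, with a single loop of score 3000, to anchor 1. Its pairs with anchors 2 to 5 on the left and with anchors 7 to 9 on the right, which span 46.3 to 69.9 kb, were not listed. An unlisted pair may have fallen below the authors' threshold, which is not given, so it cannot be called absent.

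Scores in the Mycn window were somewhat above the list as a whole at the low end. Of its 20 loops, 15 had a score of 3000 or more, or 75%, where 42.2% of all loops did. A score of 3000 was the commonest, with 10 loops, and 5 loops had the lowest score of 2000. All 8 loops of anchor 1, which the window was drawn around, were among the 15. The 5 loops of score 2000 were all among the 12 loops without anchor 1, whose median was 3000. The median score of all 20 loops was 3000, against 2000 over the list. At least 5000 was reached by 3 loops, or 15%, against 13.0% of the list, so at that level the share was close to that of all loops. The 3 loops were those from anchor 1 to anchors 2, 3 and 5. Since loops of 1 network share anchors, they are not independent values, and no test was made.

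Loops of the window had a median length of 28.2 kb, against 28.6 kb over the list, and a range of 6.81 to 151 kb. The median depended on the short loops between close anchors: with edges closer than 10000 bp joined, it was 100.4 kb over the 13 loops left. Loops over 100 kb numbered 7, or 35%, against 18.8% of the list. Score and length had a Spearman's rho of -0.02 across the 20 loops, against -0.27 across the list, both given as descriptions of loops that share anchors. By length class, the 4 loops of 5 to 10 kb scored 3000 to 4000, with a median of 3000, the same as over the list. The 4 loops of 10 to 20 kb had a median of 2500, below the 3000 of the list. Those of 20 to 50 kb, also 4, had a median of 4000 against 2000. They were the loops of anchor 1 to anchors 3, 4 and 5, and the loop of anchors 2 and 5, which scored 2000. The 1 loop of 50 to 100 kb, from anchor 1 to anchor 6, scored 3000 against a list median of 2000. The 7 loops of 100 to 500 kb scored 2000 to 4000, with a median of 3000 against 2000. Among them, the loops of anchor 1 scored 3000 or 4000 and the other loops 2000 or 3000. In each class above the list median, part or all of the loops were thus those of the anchor the window was drawn around.

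**Figure D3:**
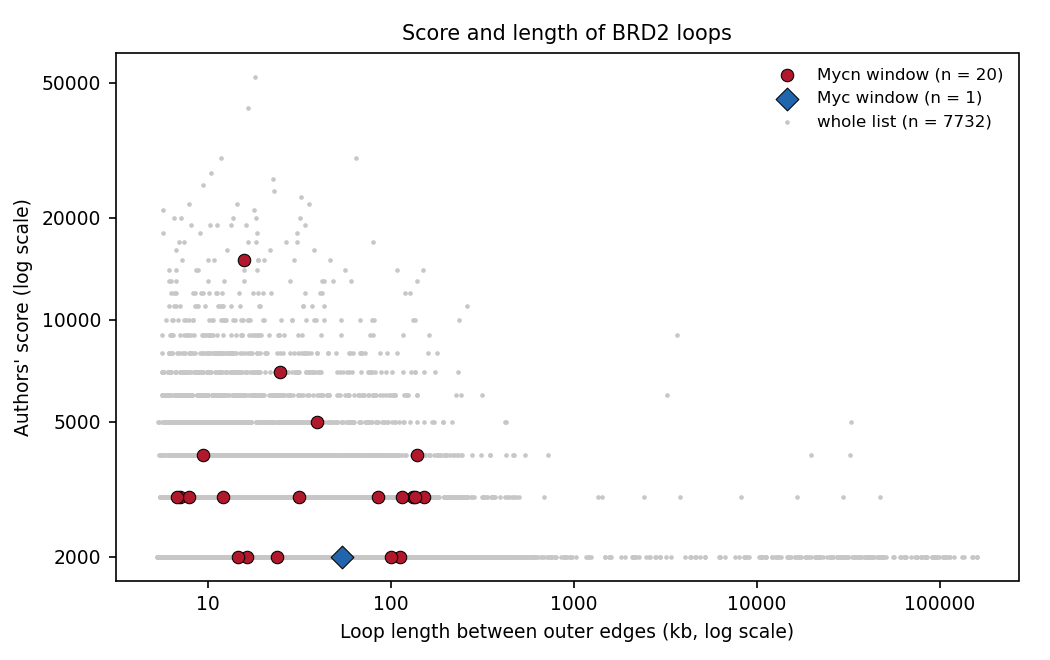
Score against loop length between outer edges (both axes on a log scale) for the 20 loops of the Mycn window, the loop of the Myc window and all 7732 loops of the list. The Mycn loops lie between 6.81 and 151 kb with scores of 2000 to 15000, and the Myc loop lies at the lowest score.

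Anchors of the Mycn window shared loops more often than anchors in general. Of its 9 anchors, 8 had 2 or more partners, where 37.7% of the 9407 anchors of the list did. With 4 or more partners there were 7 of the 9, against 6.82% of the list. The window was drawn around an anchor with many partners, so these shares follow in part from the choice.

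With loops over 5 Mb set apart, the list fell into 2686 connected groups, of which 31 had 9 anchors. The Mycn group had 20 loops, the most of the 31, where the next had 16, the median was 9 and the lowest was 8, the fewest that can join 9 anchors. It also had the most triangles of the 31, 19 against a median of 1 and a next highest of 12. Its extent of 151 kb lay below their median of 284 kb, within a range of 84.0 to 2823 kb. Among the 156 groups with 9 or more anchors, 4 had at least as many loops per anchor as the Mycn group, itself 1 of the 4. Across all sizes, 6 groups had as many triangles or more, the Mycn group included. The window was drawn around anchor 1, which brought 8 of the 20 loops and 12 of the 19 triangles. These ranks thus follow in part from the choice and are descriptions.

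Sets of 5 anchors with all pairs listed were rare. The list held 15 such sets in 8 groups (0.298% of groups), and no set of 6. Anchors 1 to 5 of the Mycn window, which include the anchor the window was drawn around, were 1 of the 15. This set was among the most compact: its 39.3 kb was the third smallest extent, where the 15 sets ranged from 37.3 to 246 kb with a median of 74.4 kb. Its summed score of 46000 was at the low end, equalled or exceeded by 14 of the 15 including itself, with a median of 73000.

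**Figure D4:**
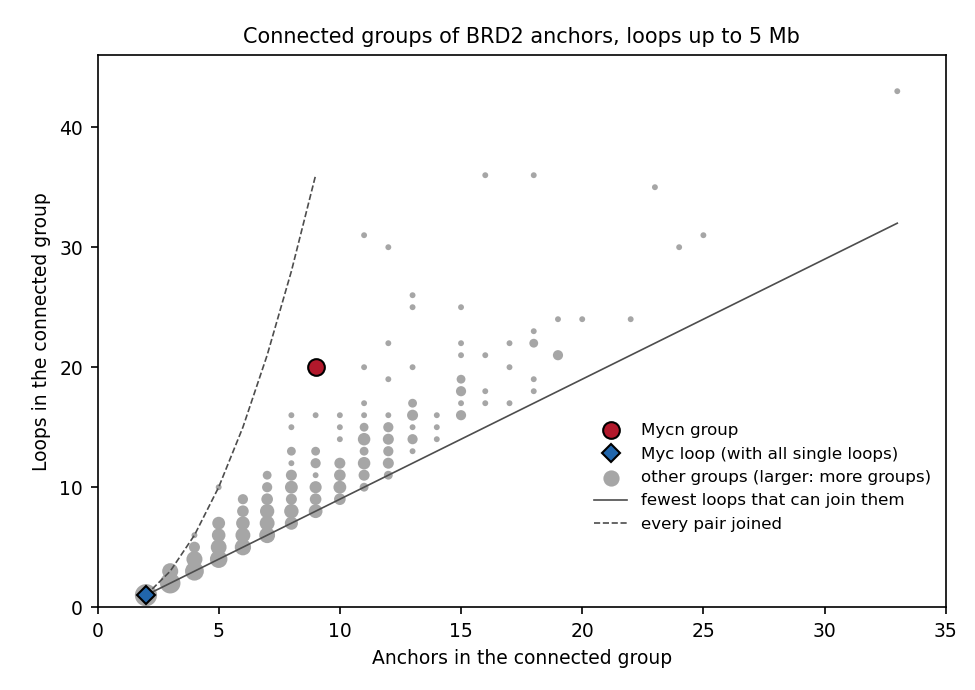
Number of loops against number of anchors in each of the 2686 connected groups of loops up to 5 Mb; point size of the other groups grows with how many share a place. The solid line is the fewest loops that can join the anchors and the dashed line joins every pair; the Mycn group, with 9 anchors and 20 loops, lies above the other groups of 9 anchors.

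The Myc window, in contrast, held a single loop. It ran from 61870636 to 61924447 on chromosome 15, 53.8 kb long, with the lowest score of 2000. Neither of its 2 anchors had another partner, so it stood alone, as did 1483 of the 2686 connected groups (55.2%). Among the 1234 listed loops between 50 and 100 kb, 32.7% scored 3000 or more. With so low a score and no replicate values, the 1 loop is a single observation. Because the genes were not placed, it was not analysed which anchor, if either, lies on Myc or Pvt1.

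The nearest other loop edges lay megabases away on both sides of the Myc loop, but only downstream of the Mycn group. Distances between groups over the whole list were not compared. Upstream of the Mycn group, the nearest loop edge, at 12722723, was 72.5 kb away. It belonged to the short loop just outside the window, 7.02 kb long, which no listed loop connected to the group. Downstream of the Mycn group, the next listed edge was at 16817711, 3.87 Mb away. No listed loop passed over the Mycn group. Around the Myc loop, the nearest edges were 2.72 Mb upstream, at 59146658, and 4.88 Mb downstream, at 66800364. Of all listed loops, 1 passed over it, from 58944461 to 101097568, 42.2 Mb long with a score of 2000.

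For comparison, windows of the same width were laid end to end along the chromosomes. Among those that held a loop edge, the Mycn window was crowded and the Myc window sparse but ordinary. A loop edge was held by 30.8% of all windows of 350 kb and by 26.0% of those of 250 kb. The 20 loops of the Mycn window were reached by 27 windows, or 1.18% of the 2286 windows of 350 kb, out of 7432, that held a loop edge. These 2286 windows had a median of 2 loops and at most 36. The single loop of the Myc window was shared as a count by 1003 windows, or 37.1% of the 2700 windows of 250 kb, out of 10399, that held a loop edge. The windows of the loci were placed around known loops, unlike the others, so these figures are descriptions.

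The Mycn network of 20 loops thinned unevenly as the minimum score was raised. Over the whole list, 42.2% of loops had a score of 3000 or more, 21.8% had 4000 or more and 13.0% had 5000 or more. At 4000 and at 5000, the share of Mycn loops kept was close to that of the list. At a score of 3000 or more, 15 loops still joined all 9 anchors in 1 group, anchor 1 kept its 8 partners, and 7 of the 19 triangles were left, with no complete set of 5. At 4000 or more, 5 loops joined 5 anchors, 4 of the loops from anchor 1. At 5000 or more, 3 loops were left, all of them from anchor 1. The contacts of anchor 1 thus made up all of the highest scores, while the complete set of anchors 1 to 5 depended on loops at the lowest listed score.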

How the data were processed

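BRD2 ChIA-PET loops of wild-type V6.5 cells were taken from 1 list of high-confidence interactions that the authors merged from 2 samples, per the file header. Cutadapt, Bowtie and mm9 are named in the submitters' processing notes. For the caller, its thresholds and the depth, nothing is stated in these sources. The deposited score of each loop was used unchanged; its unit is not stated, and all 7732 values are whole multiples of 1000. The other deposited columns used are positions in bp. Start and end were read as a loop's outer edges, an inference, because the columns for another anchor only repeat the start. Left and right edges under 5000 bp apart, in that order, were paired into 1 anchor, and length is the distance between outer edges. Anchors were numbered and joined into groups over loops up to 5 Mb. With 1 group and a merged list, no test was made, and counts, medians, ranks and shares are descriptions. Whether the samples came from separate cultures is not stated. The named items are every loop and anchor of the windows and, by their order in the gene table, 5 genes on each side of Mycn and Myc. Windows, members and names were chosen with earlier results of these data known. Anchor finding, groups, triangles and complete sets were tested on simulated data. Alternatives were a minimum score, loops over 5 Mb, the window rule, window width, anchor joining and midpoint lengths. Python 3.11.15 was used, with pandas 2.3.3 and numpy 2.4.6 for the values, scipy 1.17.1 for rank correlations and matplotlib 3.10.9 for plots.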

Additional observations from a re-analysis of the deposited data

How the results depend on the processing

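The number of loops, median score, median length and partners of the leading anchor were recomputed for both windows. Of 37 such values, 21 were for Mycn. In all, 34 stayed within 1.5 times the reported number or within the order-statistic interval of the reported median. The other 3 moved, all for Mycn. Myc values could not move, because its 1 loop was either kept unchanged or dropped. For Mycn, keeping loops over 5 Mb or asking for both edges inside the window returned the same 20 loops. The count of 34 is therefore not a measure of stability. Joining edges closer than 10000 bp merged anchors 2 to 5 and anchors 7 and 8. This left 13 loops and 4 partners of the leading anchor in place of 20 and 8, by construction. Several of the 13 loops then join the same pair of anchors. The complete set of anchors 1 to 5 is lost at this setting, since anchors 2 to 5 count as 1. The median length of those 13 Mycn loops was 100.4 kb, against 28.2 kb over all 20; it is counted among the 34 only because the interval of a median over 20 loops is wide. The median length between anchor midpoints was 14.4 kb, since only 9 Mycn loops have both edges of both anchors listed; over these 9 it was 14.7 kb between outer edges. A minimum score of 3000 left 15 Mycn loops and no Myc loop, so the Myc window has no value there; nor has it a midpoint length. Replicates could not be left out of a merged list. No paired analysis was possible because both samples belong to 1 group. Unknown depth and an unstated threshold limit what an unlisted pair means.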
